A study of Rattus norvegicus with 8 samples.

Results

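The small leucine-rich proteoglycans are matrix proteins built on leucine-rich repeats, and 10 of their genes are described here in the rat Achilles tendon: Dcn, Bgn, Aspn, Fmod, Lum, Prelp, Kera, Ogn, Omd and Podn. They were taken by gene symbol from a table of 15590 genes, in which 8 of the 10 had a row, while Omd and Podn are not analysed here. RNA was sequenced from the right Achilles tendons of wild-type male Sprague-Dawley rats, 8 to 10 weeks old, in 2 groups of 4 libraries. The 0 h p.r. (post-run) rats ran for 1 h uphill on a treadmill, kept going by airflow and mild electric stimulation, and were killed at once. The naïve controls (NC) kept to normal activity in their cages and, per the methods of the study, were killed together with a later post-run group, whereas the treatment protocol in the labels describes both groups as killed immediately. Running, its prompts and the hour of death can therefore not be told apart here. Nothing says whether a library held more than 1 tendon, so the p-values measure the spread between these libraries.

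In tendon these proteins sit on the surface of collagen fibrils, where they limit fibril width, guide cross-linking and hold growth factors. Of class I, decorin and biglycan carry chondroitin or dermatan sulfate chains and asporin carries none. Of class II, fibromodulin, lumican and keratocan may carry keratan sulfate, and PRELP belongs to the same class. Osteoglycin belongs to class III. Several of the genes are neighbours in the genome: in the RefSeq order of assembly GRCr8, Dcn, Lum and Kera follow each other, Prelp lies beside Fmod, and Ogn, Omd and Aspn form a row.

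Decorin transcripts dominated the family in every library, and no member passed the test between the groups. Values are FPKM (fragments per kilobase of transcript, scaled to depth), which compare genes per length. Depth, as reads recovered from the FPKM steps, was 10660131 to 17464752 per library. Behind the member values lay between 38 reads (Aspn in NC replicate 3) and 497039 reads (Dcn in 0 h p.r. replicate 4). The tendon markers Tnmd (87.0 to 348 FPKM), Thbs4 (196 to 521 FPKM), Scx (20.5 to 53.5 FPKM) and Mkx (5.43 to 13.0 FPKM) were present in every library. Of the 8 genes in the tendon list 1 passed between the groups: Egr1, with a log2 change of 2.44 (SE 0.31, limma adjusted p = 0.00486). The study also lists Egr1 among genes of the response to mechanical stimulus. Tnmd (log2 change -0.28), Thbs4 (-0.25), Scx (0.48) and Mkx (-0.22) were not called, and the median of the list was -0.22. The libraries were whole tissue, in which fewer cells of a type and less RNA per cell cannot be told apart.

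Of the 8 genes, limma called 0 at an adjusted p under 0.05, and 1 (Prelp, 12.5%) had an unadjusted p under 0.05. Among the 13863 genes tested, 5.72% were called, 3.49% as higher and 2.23% as lower after running, 2.70% were called with a fold of at least 2, and 22.6% had an unadjusted p under 0.05. A fit of voom to the recovered reads also called 0 members. The log2 change was above 0 for 7 of the 8 members (87.5%) and for 49.9% of all tested genes, and its median was 0.14 over the members against 0.00 over all. Without 0 h p.r. replicate 4, Fmod (-0.09) and Lum (-0.09) joined Ogn (-0.21) below 0, and Bgn stood at 0.01. With voom, Fmod (-0.02) and Kera (-0.08) joined Ogn (-0.11) below 0, while the median over all genes was -0.105. The ranges of the groups overlapped for all 8 members, while 15.6% of the tested genes had groups that did not overlap.

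Dcn encodes decorin, which binds collagen fibrils and TGF-β, and was the most abundant member, with a mean that ranked 10 among all genes. Its FPKM (ENSRNOG00000004554) was 3630, 6746, 5615 and 3751 in NC replicates 1 to 4 and 5212, 6804, 6558 and 14777 in 0 h p.r. replicates 1 to 4. Replicates 1 to 3 of 0 h p.r. lay within or just above the NC range, and replicate 4 stood at 2.17 times the next highest library. The means were 4936 ± 1511 (NC) and 8338 ± 4350 (0 h p.r.; SD, n = 4 each). The log2 change was 0.68 (SE 0.46, 95% interval -0.34 to 1.71, limma adjusted p = 0.428), an interval from 0.788 to 3.28 as a fold. With 0 h p.r. replicate 4 left out, the log2 change was 0.37 (limma adjusted p = 0.645) and the group mean was 6191 ± 857 FPKM (SD, n = 3).

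Bgn encodes biglycan, the other class I member that carries chains and a ligand of Toll-like receptors when released. Its FPKM (ENSRNOG00000055962) was 541, 615, 558 and 498 in NC, against 504, 577, 588 and 808 in 0 h p.r., so that all libraries but 0 h p.r. replicate 4 lay between 498 and 615. It was the steadiest member in NC, with a coefficient of variation of 8.74%, and its log2 change was 0.15 (SE 0.19, 95% interval -0.28 to 0.57, limma adjusted p = 0.711). Without 0 h p.r. replicate 4 the change was 0.01.

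Aspn encodes asporin, named for its stretch of aspartates, which binds collagen and TGF-β. It was the scarcest and most variable member, with FPKM (ENSRNOG00000015410) of 3.54, 12.4, 1.70 and 14.5 in NC, against 19.9, 20.5, 2.97 and 3.67 in 0 h p.r. High and low libraries occurred in both groups. Its highest value was 8.57 times its lowest in NC and 6.91 times in 0 h p.r., its residual spread on the log2 scale lay at the 98.7th percentile of all tested genes, and its change of 0.46 had a 95% interval from -1.34 to 2.26 (limma adjusted p = 0.799). 0 h p.r. replicate 4, the library with the most Dcn, held 0.179 times the Aspn of the highest library.

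**Figure D1:**
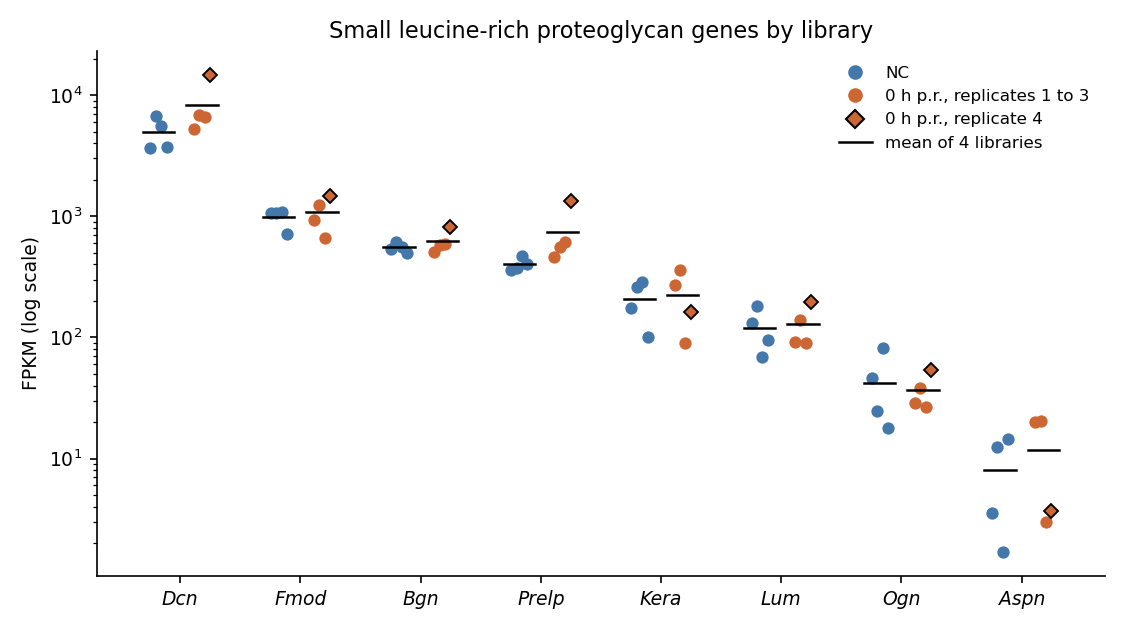
FPKM of the 8 genes on a log axis, with a point for each library, NC on the left and 0 h p.r. on the right of each gene, and a line at the mean of 4 libraries. The groups overlap for every gene, and 0 h p.r. replicate 4 (diamond) is the highest library for Dcn, Fmod, Bgn, Prelp and Lum but not for Kera, Ogn or Aspn.

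Among the class II genes, Prelp had the largest change. PRELP has a basic heparin-binding end and is thought to anchor basement membranes to connective tissue. Its FPKM (ENSRNOG00000003120) was 361, 371, 470 and 407 in NC, against 458, 560, 608 and 1348 in 0 h p.r. All 0 h p.r. libraries except replicate 1 lay above the NC range, and replicate 4 stood at 2.22 times the next highest library. The means were 402 ± 49.4 (NC) and 743 ± 408 (0 h p.r.; SD, n = 4 each). The log2 change was 0.76 (SE 0.32, 95% interval 0.05 to 1.47, limma adjusted p = 0.196, 0.0393 before adjustment). Without 0 h p.r. replicate 4 the change was 0.43 (adjusted p = 0.188).

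Fmod encodes fibromodulin, which binds collagen, carries sulfated tyrosines and guides the cross-linking of fibrils by lysyl oxidase. It was second to Dcn, with FPKM (ENSRNOG00000003183) of 1066, 1055, 1092 and 718 in NC, against 926, 1233, 664 and 1483 in 0 h p.r. The NC range lay inside the 0 h p.r. range. The log2 change was 0.09 (SE 0.29, 95% interval -0.56 to 0.74, limma adjusted p = 0.904). With 0 h p.r. replicate 4 left out it was -0.09.

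Lum encodes lumican, which shares a collagen binding region with fibromodulin. Its FPKM (ENSRNOG00000004610) was 132, 182, 68.8 and 94.9 in NC, against 92.5, 139, 89.6 and 197 in 0 h p.r., with broadly overlapping ranges. The log2 change was 0.13 (95% interval -0.64 to 0.90, limma adjusted p = 0.874). Without 0 h p.r. replicate 4 it was -0.09.

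Kera encodes keratocan, best known as a keratan sulfate proteoglycan of the cornea, and was nevertheless more abundant than Lum in 7 of the 8 libraries. Its FPKM (ENSRNOG00000004635) was 176, 259, 288 and 101 in NC, against 273, 361, 90.2 and 163 in 0 h p.r. High and low libraries were mixed between the groups, and the log2 change was 0.03 (95% interval -1.01 to 1.07, limma adjusted p = 0.981).

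Ogn, the class III gene for osteoglycin, was the only member with a log2 change below 0, at -0.01 (95% interval -0.997 to 0.97, limma adjusted p = 0.992). Its FPKM (ENSRNOG00000029792) was 46.0, 24.5, 81.0 and 17.9 in NC, against 28.9, 38.4, 26.8 and 53.4 in 0 h p.r., so that the 0 h p.r. range lay inside the NC range. The spread was wider in NC (4.53 times from lowest to highest) than in 0 h p.r. (1.99 times), a difference that was not tested.

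**Figure D2:**
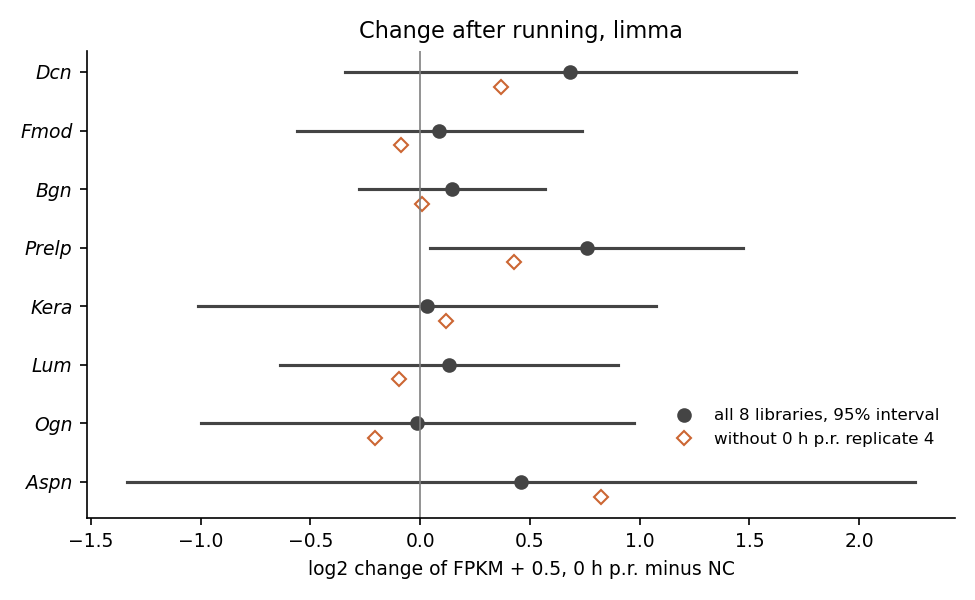
Log2 change of FPKM + 0.5 from NC to 0 h p.r. for the 8 genes, with the limma estimate and 95% interval over all libraries (circles and bars) and the estimate without 0 h p.r. replicate 4 (diamonds). The Prelp interval, from 0.05 to 1.47, is the only one that does not include 0, and it carries no adjustment for the number of genes.

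The order of the mean levels was Dcn, Fmod, Bgn, Prelp, Kera, Lum, Ogn and Aspn. Dcn exceeded Fmod, Fmod exceeded Bgn, Prelp exceeded Kera and Ogn exceeded Aspn in all 8 libraries. Dcn was separated most widely from its neighbour, with a mean over all libraries 6.45 times that of Fmod. Bgn and Prelp were the closest pair: Bgn was the higher in all 4 NC libraries but in 2 of the 4 0 h p.r. libraries. The ranges of Kera and Lum overlapped in both groups, those of Lum and Ogn in NC, and those of Fmod and Bgn in 0 h p.r.

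The summed FPKM of the 8 genes was 5955, 9265, 8174 and 5603 in NC replicates 1 to 4 and 7514, 9731, 8629 and 18833 in 0 h p.r. replicates 1 to 4. The first 3 0 h p.r. libraries lay in or near the NC range. The group means, 7249 ± 1761 and 11177 ± 5184 (SD, n = 4), gave a fold of 1.54, or 1.19 without 0 h p.r. replicate 4. Dcn alone made up 61.0% to 72.8% of this sum in NC and 69.4% to 78.5% in 0 h p.r. As a share of recovered reads, the 8 genes took 1.48% to 2.01% in NC, 1.52% to 2.30% in 0 h p.r. replicates 1 to 3 and 4.19% in replicate 4.

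**Figure D3:**
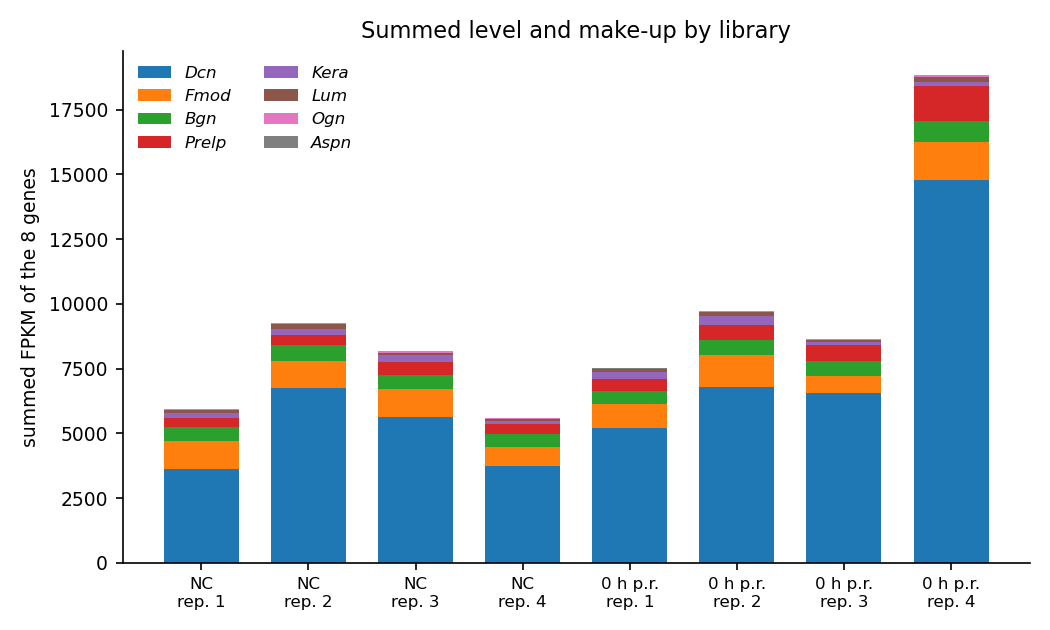
Summed FPKM of the 8 genes in each library, stacked by gene from Dcn at the base. 0 h p.r. replicate 4 reaches 18833, against 5603 to 9731 in the other 7 libraries, and most of each bar is Dcn.

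Other measures of composition also set 0 h p.r. replicate 4 apart. The summed FPKM of 9 skeletal muscle markers was 1089 there, against 4788 to 7919 in NC and 36080, 6154 and 16460 in 0 h p.r. replicates 1 to 3. By this sum 0 h p.r. replicate 1 stood apart in the other direction. Without 0 h p.r. replicate 1 the log2 change was 0.87 for Dcn (limma adjusted p = 0.395) and 0.95 for Prelp (limma adjusted p = 0.147). Summed markers of cartilage were highest in 0 h p.r. replicate 4 (1162 against 485 to 725 in the other 7 libraries). So were those of bone (200 against 15.6 to 135), but the changes of both lists between the groups were also above 0. The cartilage sum mostly followed 1 gene, Cytl1, whose group means were 523 (NC) and 618 (0 h p.r.), against 18.8 and 102 for Col2a1. NC replicate 2 had the sum of 725 but the lowest mean log2 value over the cartilage list (1.98). By that mean 0 h p.r. replicate 4 was still the highest library (6.05). All 7 tested bone markers had a log2 change above 0 (median 1.56), with sums of 15.6 to 64.2 in NC, against 58.8 to 200 in 0 h p.r., and 1 was called (Phex, 0.83, limma adjusted p = 0.0243, a call lost without NC replicate 1 or 3 or 0 h p.r. replicate 1, 2 or 3, up to 0.0816). Phex lay at 0.147 to 0.909 FPKM, and its log2 change was 1.48 with a pseudocount of 0.1, 0.55 with 1 and 1.73 with voom. All 5 tested cartilage markers also had a log2 change above 0 (median 1.51), with Col2a1 at 2.75 (adjusted p = 0.161). The Col2a1 change was 1.76 without NC replicate 2, 3.48 without 0 h p.r. replicate 3 and 1.88 with array weights. All 10 fat markers had a log2 change below 0, and 6 were called. Retn (log2 change -2.14, limma adjusted p = 0.0117) was called without each library in turn. Cidec (-2.41, adjusted p = 0.0270) lost its call without NC replicate 1 or 2 or 0 h p.r. replicate 2 or 3 (up to 0.0785). Lep (-2.37, adjusted p = 0.0286) held its call only without replicate 4 of either group (up to 0.0857 otherwise). The sum of the 10 was 3309 to 6790 in NC and 1106 to 2451 in 0 h p.r. No listed marker was at 0 in all libraries, and the part of any of these cell types in the member values was not tested. NC replicate 2 also stood apart, with 36.2% of its FPKM in mitochondrial genes against 19.0% to 25.6% in the other libraries, the lowest depth and the lowest weight in a fit with array weights (0.238 against 0.566 to 1.78). Without it the log2 change was 0.85 for Dcn (adjusted p = 0.212) and 0.72 for Prelp (adjusted p = 0.247). Of 11 clock genes only Ciart passed (log2 change 2.28, limma adjusted p = 0.0415), a call lost without any library other than 0 h p.r. replicate 4.

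Ratios of 2 members within a library do not depend on how the library was scaled. Dcn over Bgn, the ratio of the class I genes whose products carry chains, was 6.71, 10.97, 10.1 and 7.53 in NC, against 10.3, 11.8, 11.1 and 18.3 in 0 h p.r., so that 3 of the 4 0 h p.r. libraries lay above all NC libraries. The means were 8.82 ± 2.02 and 12.9 ± 3.64 (SD, n = 4), a log2 difference of 0.54 (exact permutation test over 70 assignments, two-sided p = 0.0571, adjusted over 3 ratios p = 0.171, smallest possible p 0.0286). With 0 h p.r. replicate 4 left out, the 0 h p.r. mean was 11.1 ± 0.734 (SD, n = 3) and the log2 difference 0.36 (exact permutation p = 0.171). Lum over Fmod, which share a collagen binding region, was 0.123, 0.173, 0.0630 and 0.132 in NC, against 0.0999, 0.113, 0.135 and 0.133 in 0 h p.r., with a log2 difference of 0.05 (exact permutation p = 0.857). For Aspn over Dcn the NC mean was 0.00175 ± 0.00155 and the 0 h p.r. mean 0.00188 ± 0.00180 (SD, n = 4 each), while the log2 difference, the quantity tested, had the opposite sign at -0.18 (exact permutation p = 0.857). For Lum over Fmod and Aspn over Dcn the groups overlapped broadly.

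**Figure D4:**
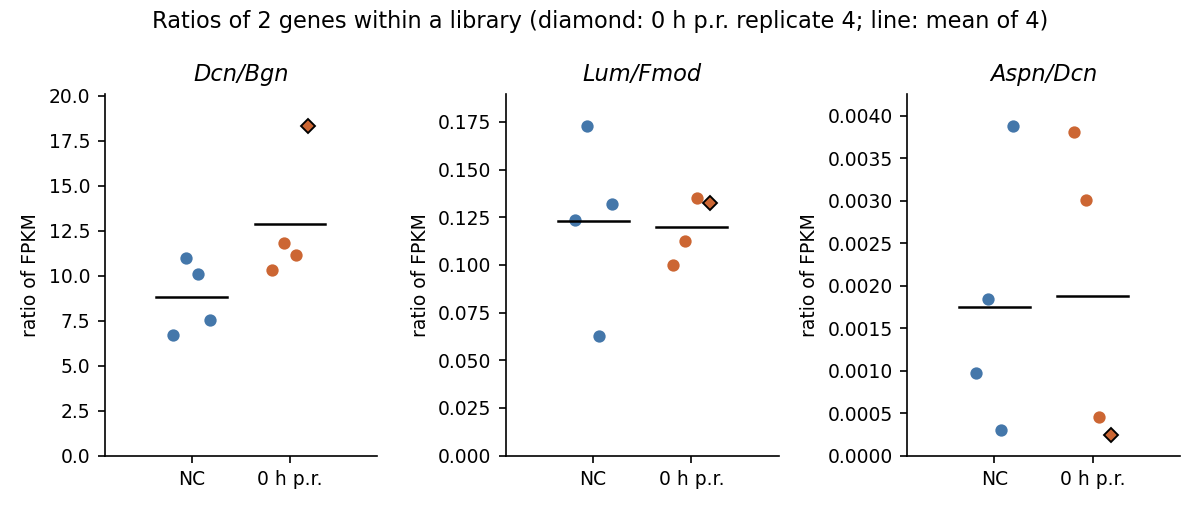
Ratios of FPKM within a library for Dcn/Bgn, Lum/Fmod and Aspn/Dcn, each on its own linear axis from 0, with a point for each library and a line at the mean of 4. Dcn/Bgn reaches 18.3 in 0 h p.r. replicate 4 (diamond), and the Lum/Fmod values of 0 h p.r. lie within those of NC.

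Of the further genes of the family, 4 were tested and 0 were called by limma or voom, with 2 (Chad and Tsku) at an unadjusted p under 0.05. Chad, which encodes chondroadherin, a cartilage protein that binds integrin, was more abundant than Fmod in every library. Its FPKM was 1138, 1518, 1574 and 1136 in NC, against 1558, 2048, 2106 and 4132 in 0 h p.r., again highest in replicate 4 and with overlapping groups (log2 change 0.79, limma adjusted p = 0.197). Without that library the change was 0.51 (adjusted p = 0.275). Epyc, the neighbour of Kera in the genome, stayed between 0.108 and 0.588 FPKM and was not tested.

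Genes that make and modify the chains are described in 4 lists. The linker list covers the sugars that join a chain to its core protein, and 1 of its 8 genes was called. That gene, Ugdh, makes the sugar donor UDP-glucuronic acid and does not itself add a linker sugar. Ugdh was 29.5, 29.9, 28.9 and 43.9 FPKM in NC, against 47.7, 104, 70.8 and 67.8 in 0 h p.r. Every 0 h p.r. library exceeded every NC library, and the log2 change was 1.09 (SE 0.23, limma adjusted p = 0.0329). Xylt1 and Xylt2, whose products start the chain, had log2 changes of 0.87 (adjusted p = 0.168) and -0.42 (adjusted p = 0.143). The median of the list was 0.01.

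The chondroitin and dermatan sulfate list had 1 call among 16 genes, a lower one, with a median log2 change of 0.05. Chst7, a chondroitin 6-sulfotransferase, fell from 4.93, 5.96, 5.94 and 7.35 FPKM in NC to 3.36, 2.65, 2.74 and 4.11 in 0 h p.r. (log2 change -0.82, SE 0.17, limma adjusted p = 0.0306), with no overlap of the groups. Chst14 and Dse, which act in making dermatan sulfate, had changes of -0.77 (adjusted p = 0.0786) and -0.20 (adjusted p = 0.505). None of the 8 genes for sulfate supply and tyrosine sulfation was called by limma or voom, 1 (Slc35b3) had an unadjusted p under 0.05, and Papss2, which makes the sulfate donor, had a log2 change of 0.44 (adjusted p = 0.267), or 0.25 without 0 h p.r. replicate 4. Slc35b3 was nearly as far from 0, at -0.43 (adjusted p = 0.166).

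In the keratan sulfate list limma called 3 of 7 genes, all higher after running, against 5.72% of all tested genes, and voom called 0. The median log2 change of the list was 0.42. Chst1, a keratan sulfate sulfotransferase, was 6.67, 6.75, 9.06 and 9.59 FPKM in NC, against 13.3, 15.7, 16.4 and 26.3 in 0 h p.r. (log2 change 1.08, SE 0.22, limma adjusted p = 0.0259). B3gnt2 and B4galt1, which build N-acetyllactosamine chains on many glycoproteins besides keratan sulfate, rose by 0.42 (SE 0.10, limma adjusted p = 0.0380) and 0.65 (SE 0.16, adjusted p = 0.0466). B3gnt7 had a larger change (1.18) with an adjusted p of 0.0521, and the 3 others lay between -0.16 and -0.04. For all 4 of the named genes every 0 h p.r. library exceeded every NC library, while 15.6% of all tested genes had groups that did not overlap.

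The chain enzymes' calls were close to the threshold. Those of Ugdh and Chst1 were lost without NC replicate 1, 2 or 3 or 0 h p.r. replicate 2 or 3 (adjusted p up to 0.0978 and 0.0845), that of B4galt1 also without 0 h p.r. replicate 1 (up to 0.136), and that of B3gnt2 without any library other than NC replicate 2 or 0 h p.r. replicate 4 (up to 0.125). The Chst7 call held only without 0 h p.r. replicate 4 (up to 0.0991 otherwise). With scaling that left out mitochondrial and muscle genes, the adjusted p of the 5 lay between 0.0509 and 0.271, above the threshold, and their directions stayed as they were. With voom Chst7 was still called (adjusted p = 0.0369), and the 4 others were not (0.0663 to 0.232). The calls of Adamts1, Adamts4, Cd44 and Sdc4 held in both of these fits.

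**Figure D5:**
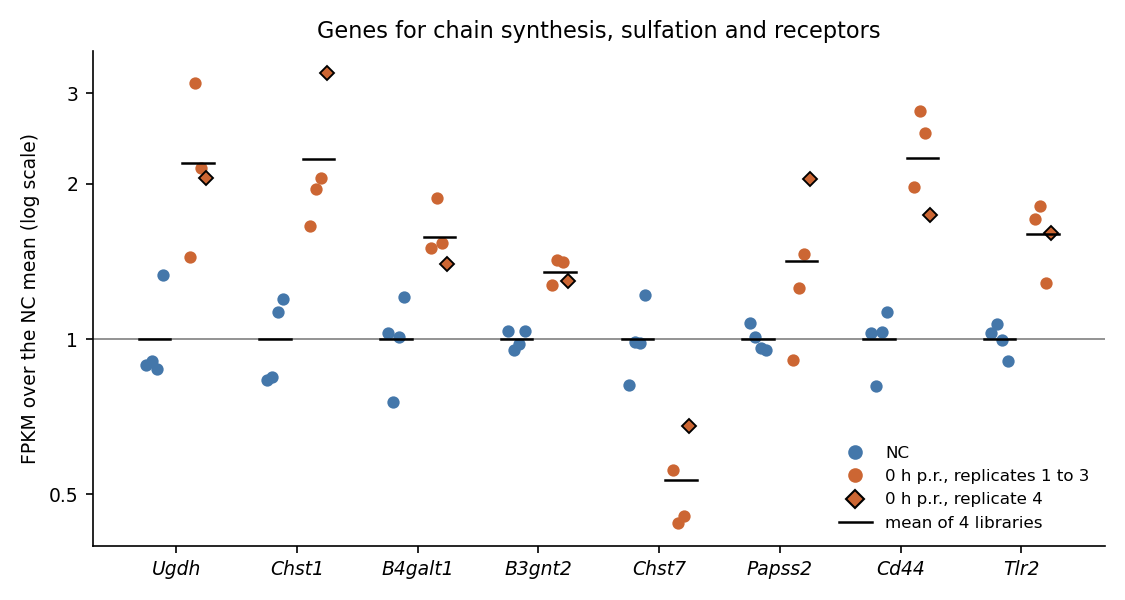
FPKM over the NC mean, on a log axis, for Ugdh, Chst1, B4galt1, B3gnt2, Chst7, Papss2, Cd44 and Tlr2, with a point for each library, NC on the left and 0 h p.r. on the right, and a line at the mean of 4. The groups are apart for every gene shown except Papss2, and Chst7 is the gene with lower 0 h p.r. values.

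Proteases that cut these proteoglycans or ripen their partners were called for 2 of 10 genes, and the median of the list was -0.12. Adamts1, which encodes an aggrecan- and versican-cutting protease, was 8.32, 9.73, 12.9 and 29.9 FPKM in NC, against 137, 133, 158 and 78.8 in 0 h p.r. (log2 change 3.15, SE 0.38, limma adjusted p = 0.00329). Adamts4, an aggrecanase also reported to cut decorin, biglycan and fibromodulin, rose by 2.40 (SE 0.33, adjusted p = 0.00599). In contrast to Dcn and Prelp, both were lowest among the 0 h p.r. libraries in replicate 4, and both calls held without each library in turn. Bmp1, which trims the propeptide of biglycan, had a change of -0.16 (adjusted p = 0.665).

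Of 11 collagen fibril partners 0 were called by limma or voom, with 2 (Comp and Lox) at an unadjusted p under 0.05 and a median log2 change of 0.11. Col1a1, the main fibril collagen chain, had a change of 0.05 (adjusted p = 0.958). Lox, the cross-linking lysyl oxidase, was 29.8, 50.8, 48.9 and 43.4 FPKM in NC, against 60.6, 84.3, 56.3 and 129 in 0 h p.r. (log2 change 0.88, adjusted p = 0.0987). Its groups were apart, but the change did not pass the threshold in the fit reported. With array weights, a fit that called 2069 genes in all, Lox passed (log2 change 0.89, limma adjusted p = 0.0398).

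Among 14 ligands and receptors of the family 2 were called, both higher, and the median log2 change was 0.13. Cd44, a hyaluronan receptor that also binds matrix proteoglycans, rose from 18.1, 14.3, 18.1 and 19.8 FPKM in NC to 34.6, 48.7, 44.0 and 30.6 in 0 h p.r. (log2 change 1.13, SE 0.17, limma adjusted p = 0.00817), and its call held without each library in turn. Tlr2, a receptor of soluble biglycan, rose by 0.61 (adjusted p = 0.0374), a call lost without NC replicate 1, 3 or 4 or 0 h p.r. replicate 1 or 2 (up to 0.119), with voom (0.0814) and with scaling that left out mitochondrial and muscle genes (0.123). Tgfb1, whose product decorin, biglycan and asporin bind, had a change of 0.70 (adjusted p = 0.0688) with groups apart.

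Of 16 other proteoglycans 1 was called. Sdc4, a heparan sulfate proteoglycan of focal adhesions, was 25.2, 22.6, 30.5 and 36.0 FPKM in NC, against 93.9, 105, 74.9 and 131 in 0 h p.r. (log2 change 1.80, SE 0.20, limma adjusted p = 0.00226), and its call held without each library in turn. Acan, the cartilage proteoglycan aggrecan, had a larger change (2.06, SE 0.65, limma adjusted p = 0.0998) with overlapping groups. The study, which tested read counts with DESeq2, reported Acan as up-regulated in the same comparison. The cartilage and bone markers given above had log2 changes above 0, as Acan and Chad did, and their part in the values of these genes and of the chain enzymes was not tested. The median of the list of other proteoglycans was 0.14, the same as that of the 8 small leucine-rich proteoglycan genes.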

How the data were processed

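The authors captured polyadenylated RNA, made stranded libraries, aligned reads with HISAT2 2.1.0 to rat build Rnor_6.0, counted them with featureCounts 1.6.3 and deposited FPKM values per gene for 8 libraries. The strand setting of the counting is not given in the sources used here. The authors' DESeq2 1.30.1 columns (a log2 fold change and p-values) were not used. No source says so, but the deposited FPKM appear scaled between libraries: relative to mean levels per gene, every library had a median log2 ratio near 0 (-0.000876 to 0.0198). Reads were recovered from the FPKM steps (whole within 0.05 for 99.99% of genes) and give depth only, except in the voom alternative.

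Genes with FPKM of at least 0.5 in at least 4 libraries were tested by limma 3.58.1 (R 4.3.3, trend) on log2(FPKM + 0.5), which understates changes of low genes, without covariates, two-sided, with Benjamini-Hochberg adjustment over 13863 genes. The script was tested on simulated data. Ratios were compared by exact permutation in Python 3.11.15. Members, lists and the naming rule (all members, and per list up to 3 called genes with the largest change, otherwise the 1 with the largest change) were chosen with earlier results of these data known, and further genes were named after their values were seen. Alternatives were other pseudocounts, filters and scalings, array weights, a replicate block, voom and leaving out each library. Gene neighbours are from RefSeq GRCr8, and no coordinates are given.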

Additional observations from a re-analysis of the deposited data

Results flagged for a closer look

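Of 72 groups of 4 libraries examined among the members, the genes named by rule and the 3 ratios, 5 had a library far from the other 3 by Dixon's test at its 95% level, where chance gives about 1 in 20 groups. Dcn stood at 14777 FPKM in 0 h p.r. replicate 4, against 5212 to 6804 in the others of its group. Prelp stood at 1348 FPKM in the same library, against 458 to 608. The other 3 were in NC replicate 4: Fmod was low there at 718 FPKM (others 1055 to 1092), Ugdh was high at 43.9 FPKM (others 28.9 to 29.9), and Adamts4 was high at 7.07 FPKM (others 4.32 to 4.76). The cause of these values was not tested.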

How the results depend on the processing

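The number of members called was 0 in all 18 alternative fits, and the lowest adjusted p of a member was 0.125 (Prelp with array weights). Of 144 member values under the alternatives, 127 kept the sign of the log2 change and 17 reversed, and the cause of the reversals was not tested. Dcn (0.37 to 0.87), Bgn (0.01 to 0.24) and Prelp (0.43 to 0.95) stayed above 0 in every fit. Fmod reversed with voom (-0.0197) and ranged from -0.0872 to 0.30 when a library was left out. Kera reversed with quantile scaling (-0.0625), with scaling without mitochondrial and muscle genes (-0.0491) and with voom (-0.0795), and ranged from -0.27 to 0.40 when a library was left out. Under the same omission Lum ranged from -0.10 to 0.37, Ogn from -0.34 to 0.38, Aspn from -0.0584 to 0.91 (1.01 with array weights), the Dcn/Bgn difference from 0.36 to 0.65, the Lum/Fmod difference from -0.25 to 0.24 and the Aspn/Dcn difference from -0.84 to 0.52. The members' share of FPKM in NC moved from 1.13% to 1.58% when mitochondrial and muscle genes were left out.

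Counts over all genes moved more: 793 were called in the fit reported, 388 with scaling without mitochondrial and muscle genes, 529 with voom and 2069 with array weights. Of these calls 61.0% were higher in the fit reported and 42.3% with voom, which shifted the median change of all genes to -0.10. The share was 83.8% with the replicate block and 57.4% to 78.5% when a library was left out. Leaving out NC replicate 1, 2, 3 or 4 gave 280, 692, 366 or 486 calls, and leaving out 0 h p.r. replicate 1, 2, 3 or 4 gave 357, 251, 271 or 1178. Same-numbered libraries did not deviate together (correlations -0.141 to 0.0717, with 0 of 8 libraries closest to its own number). With 4 libraries in each group, these values cannot exclude a pairing by number. With the replicate number as a block, 0 members and 235 genes were called, and of the genes named by rule Chst1, Adamts1, Adamts4, Sdc4 and Egr1 were called, while the others, with Cd44 (adjusted p = 0.0531) and Retn (0.0527), were not. Depth limits Aspn most, at 38 to 567 reads.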
